A study of Mus musculus with 2 samples.

Results

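Cd40lg, Tnfrsf4, Tnfrsf25 and Icos encode 4 co-stimulatory molecules of T cells, 1 ligand and 2 receptors of the TNF family and 1 receptor of the CD28 family. They were chosen by name, and they are 4 of the 2000 genes measured. They were followed in CD4 and CD8 T cells from the spleens of mice given a haematopoietic cell transplant, by treatment and by division state. With division states pooled, Tnfrsf25 was detected more often under anti-IL-2 than under tacrolimus in both lineages. It was in 36.0% against 10.4% of CD4 cells and 13.4% against 1.38% of CD8 cells. Thinned to 1 depth, the CD8 share under anti-IL-2 was no higher than that in cells of other lineages. Split by state at that depth, the libraries differed by the size rule given below only in non-dividing cells. The shares of Cd40lg, Tnfrsf4 and Icos differed by less than 1.2-fold between the libraries over all CD4 cells, division states pooled. Cd40lg was close to background in CD8 cells of both.

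Recipients were lethally irradiated wild-type BALB/c mice that received spleen and bone marrow cells of wild-type C57BL/6 donors, and cells were isolated from their spleens on day 6. In the anti-IL-2 group recipients were given a monoclonal antibody against IL-2 from day 0 to day 6. In the tacrolimus group they were given tacrolimus, a calcineurin inhibitor that keeps the transcription factor NFAT out of the nucleus, over the same days. Each group was 1 library, so differences carry no replicate check, and treatment and library cannot be told apart. All groups share the irradiation and the transplant, and no untreated recipient was analysed here. The sources used here do not say how many mice a library held or whether recipient cells were removed.

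T cells need a signal from the antigen receptor and a second, co-stimulatory signal to divide and to become effector or helper cells. CD40 ligand, encoded by Cd40lg, is put on the surface of activated CD4 T cells and licenses B cells and dendritic cells through CD40. OX40, encoded by Tnfrsf4, and DR3, encoded by Tnfrsf25, are receptors that signal through TRAF adaptors to NF-κB when they bind OX40 ligand and TL1A. ICOS, encoded by Icos, is induced after activation, signals through phosphoinositide 3-kinase and is needed for follicular helper T cells.

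In GRCm38 with GENCODE M21 all 4 genes are protein-coding and on the plus strand. Icos lies at chr1:60977927-61000320, Tnfrsf25 at chr4:152115934-152120119, Tnfrsf4 at chr4:156013843-156016612 and Cd40lg at chrX:57212143-57224042. The 250 bases before the RefSeq starts (GRCm38.p6) are shown for Tnfrsf25 and Tnfrsf4, 2 receptor genes on the same chromosome that differed in how far their detection moved between the libraries. Capitals mark 2 motifs on either strand. The first is the core GGAAA of NFAT sites. The second is the core CTTTGA of sites for TCF and LEF factors, of which TCF-1 is encoded by Tcf7.
Tnfrsf25 first start, chr4:152115684-152115933, plus strand: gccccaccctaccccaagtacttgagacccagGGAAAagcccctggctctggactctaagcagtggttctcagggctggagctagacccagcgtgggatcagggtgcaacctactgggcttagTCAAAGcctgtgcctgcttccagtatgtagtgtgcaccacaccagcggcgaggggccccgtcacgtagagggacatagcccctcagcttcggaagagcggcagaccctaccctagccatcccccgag
Tnfrsf25 second start, chr4:152116093-152116342, plus strand: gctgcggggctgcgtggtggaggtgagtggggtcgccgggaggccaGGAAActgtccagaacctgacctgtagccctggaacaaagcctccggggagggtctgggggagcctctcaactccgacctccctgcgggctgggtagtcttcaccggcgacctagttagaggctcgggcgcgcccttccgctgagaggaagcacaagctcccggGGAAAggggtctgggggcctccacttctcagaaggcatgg
Tnfrsf4, chr4:156013445-156013694, plus strand: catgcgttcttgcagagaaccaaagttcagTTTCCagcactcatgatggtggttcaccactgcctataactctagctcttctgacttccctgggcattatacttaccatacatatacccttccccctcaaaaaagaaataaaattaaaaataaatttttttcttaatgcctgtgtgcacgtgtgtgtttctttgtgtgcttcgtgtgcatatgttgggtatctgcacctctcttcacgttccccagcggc

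The NFAT core occurred 1 time before the first Tnfrsf25 start, 2 times before the second and 1 time before the Tnfrsf4 start, and 55.6% of 32851 mouse promoter windows of this length hold it. The TCF and LEF core occurred 1 time, before the first Tnfrsf25 start, and 13.8% of windows hold it. The motifs do not overlap each other in these windows. Such matches are common letters in short windows and say nothing about binding.

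The anti-IL-2 file held 1551 cells and the tacrolimus file 1688, with 4 cell barcodes in common. Cells were placed in the CD4 gate where Cd4 was detected without Cd8a and Cd8b1, and in the CD8 gate where Cd8a or Cd8b1 was detected without Cd4, if they also had more markers of T cells than of other lineages. The CD4 gate held 225 anti-IL-2 and 228 tacrolimus cells (median 7831 and 11078.5 UMIs), and the CD8 gate 558 and 622 cells (median 12942 and 13456 UMIs). Cd5, a surface protein of T cells, was in 84.0% and 92.5% of CD4 gate cells and in 83.0% and 82.6% of CD8 gate cells, and the Cd3 chain genes are not among the genes measured. A further 465 anti-IL-2 and 536 tacrolimus cells failed the comparison of markers, most often through Cst3, Bst2 and Cd68, which were also in many cells of both gates. Of 33 measured markers of other lineages, 27 and 26 were in 0 cells of the CD4 gate and 14 and 15 in 0 cells of the CD8 gate. A cell entered a gate only with fewer of these markers than of T-cell markers, of which 5 were measured. The gate itself thus keeps these markers rare, and the counts do not measure purity.

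Under anti-IL-2, 84.0% of CD4 and 39.8% of CD8 cells were non-dividing, against 34.6% and 16.1% under tacrolimus. Each remaining cell was placed in G1/S or G2/M by how many genes of that phase it held. Cells in G2/M also held more UMIs, so that state, depth and library move together. In anti-IL-2 CD4 cells the median was 6941 UMIs in non-dividing cells and 18396.5 UMIs in G2/M cells. For this reason levels are shares of cells holding 1 or more UMIs of the gene. Where the libraries are compared, tacrolimus cells were thinned to the depths of the anti-IL-2 cells, which were not thinned. Anti-IL-2 cells had the higher median depth in non-dividing CD8 cells and in dividing cells of both gates. Depth was thus not fully matched in those groups. Where gates or states are compared, unthinned shares stand beside shares at 5000 UMIs, for which cells were thinned to that number and shallower cells were left out. This kept 179 of 225 CD4 and 481 of 558 CD8 cells under anti-IL-2, and 201 of 228 and 587 of 622 under tacrolimus. A gene was called higher or lower where the share reached 5% in either group and the ratio of shares was at least 1.5 or at most its inverse. Intervals are 95% intervals (Clopper-Pearson for shares, Katz for ratios) and cover counting error only.

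Most values of the 4 genes lay well on one side of the limit between cells with and without a UMI. The deposited anti-IL-2 values had been shifted by batch integration, and the shift was estimated and removed before cells were called. Over 1551 anti-IL-2 cells the call depended on that removal in 6 cells for Cd40lg, 16 for Tnfrsf4, 34 for Tnfrsf25 and 14 for Icos. Cells called as holding the gene numbered 275, 365, 296 and 1006, so the removal weighed most on Tnfrsf25. With deposited values its log2 ratio of shares, anti-IL-2 over tacrolimus, was 1.78 in CD4 and 2.91 in CD8 cells. With the shift removed it was 1.80 and 3.28. The cells whose value lay near the limit, between 0.35 and 0.65 of the level of 1 UMI, numbered 14 for Cd40lg, 18 for Tnfrsf4, 19 for Tnfrsf25 and 21 for Icos. The plot of all values shows few cells near the limit in each gene.

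**Figure D1:**
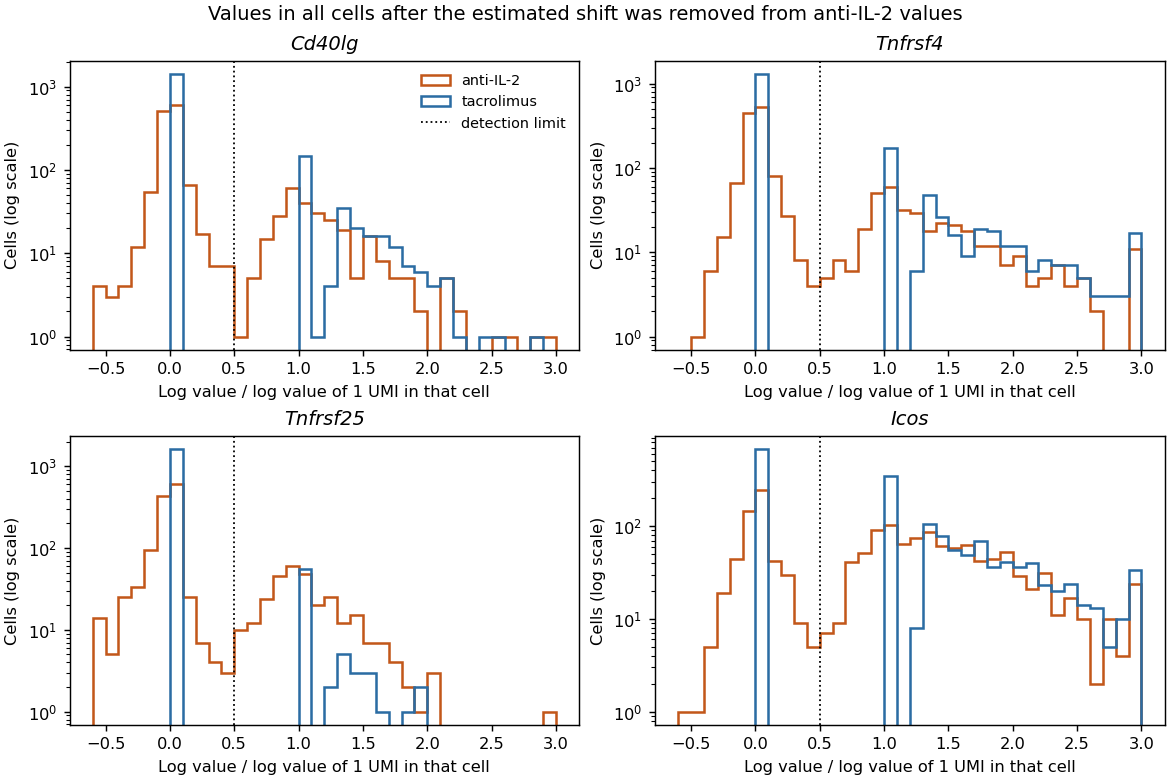
Histograms of the value of each gene in every cell, divided by the value that 1 UMI gives in that cell (x axis), against the number of cells on a log scale (y axis), for the anti-IL-2 and tacrolimus libraries. Values past either end are drawn in the end bins; tacrolimus values fall on whole UMIs, anti-IL-2 values scatter around them, and few cells lie near the dotted limit of 0.5.

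In cells of other lineages, which have no CD4 or CD8 gene detected, the 4 genes gave the background. Cd40lg was in 1.49% of 134 such cells under anti-IL-2 and 3.101% of 129 under tacrolimus, Tnfrsf4 in 4.48% and 3.88%, Tnfrsf25 in 4.48% and 1.55%, and Icos in 10.4% and 9.30%. These cells were shallow (median 3091 and 1917 UMIs) and 9.0% and 7.0% of them held Cd5.

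Cd40lg, Tnfrsf4 and Tnfrsf25 were more frequent in the CD4 gate of both libraries before any thinning, Cd40lg most of all. Of the 4 genes, 3 were called higher in CD4 than in CD8 cells of the anti-IL-2 library, where 10.4% of 912 tested genes were, and 3 in the tacrolimus library, where 7.4% of 919 genes were. Icos was the gene left out, with 79.1% of CD4 and 68.3% of CD8 cells under anti-IL-2 and 79.4% against 60.1% under tacrolimus. At 5000 UMIs its shares were 70.2% against 39.8% (1.77-fold) and 70.7% against 33.9% (2.09-fold), and all 4 genes were called higher in CD4 cells of both libraries, beside 17.1% and 10.4% of all tested genes. In CD4 cells at that depth the order of shares was Icos, Cd40lg, Tnfrsf4 and Tnfrsf25 in both libraries. The shares were 70.2%, 37.8%, 32.1% and 23.4% under anti-IL-2 and 70.7%, 36.3%, 30.02% and 6.603% under tacrolimus. By mean level anti-IL-2 CD4 cells held more Tnfrsf4 than Cd40lg (1.33 against 0.972 UMIs per 10000), so no order of that pair is read there.

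**Figure D2:**
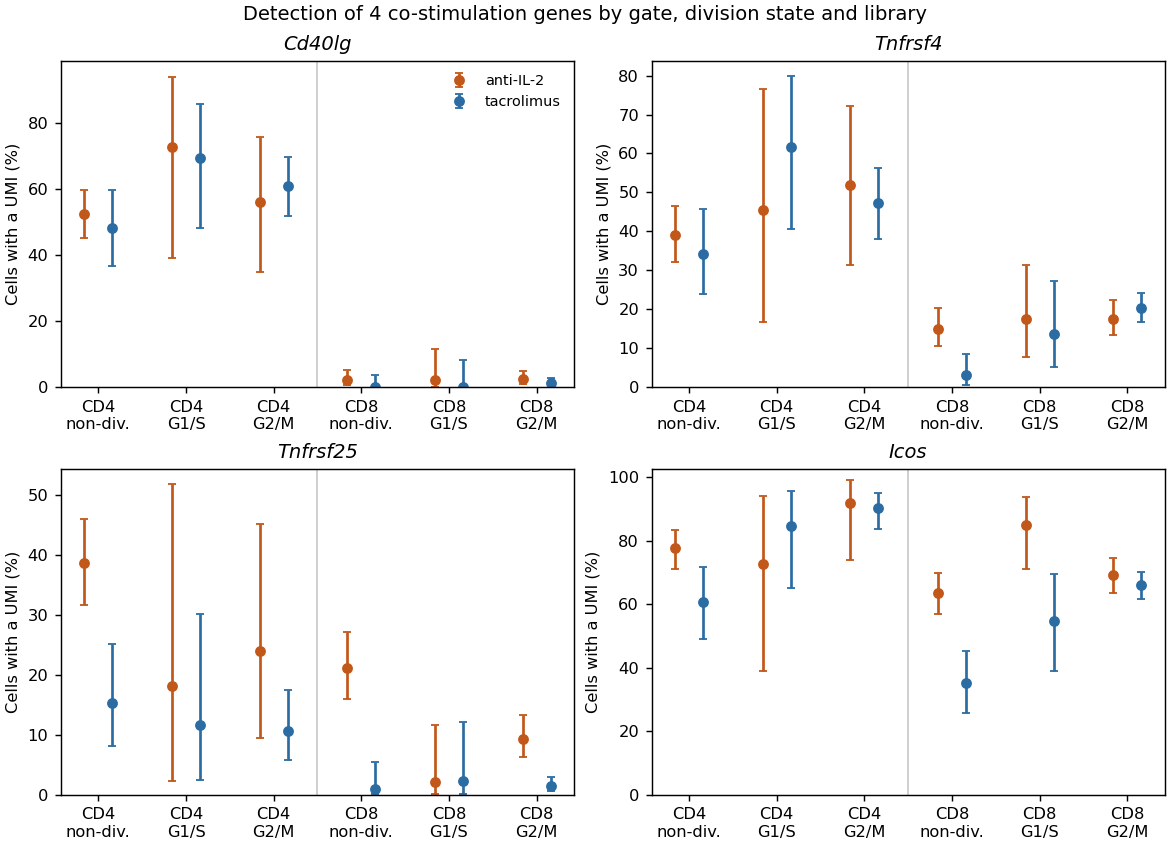
Share of cells holding each gene (y axis, percent, unthinned) in each gate and division state (x axis), with anti-IL-2 left of tacrolimus; points are shares and bars are 95% Clopper-Pearson intervals. Cd40lg is near 0 throughout the CD8 gate, and Tnfrsf25 is higher under anti-IL-2 in non-dividing cells of both gates.

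Cd40lg, the ligand, was close to a CD4 gene in these cells and did not differ between the libraries by the size rule. Its CD4 share was 53.8% under anti-IL-2 (47.0 to 60.4%) and 49.9% under tacrolimus at matched depth (43.3 to 56.7%), a ratio of 1.08 (0.902 to 1.29). The mean level went the other way, with 0.972 UMIs per 10000 under anti-IL-2 and 1.04 under tacrolimus, so no order is read. In CD8 cells it was in 13 of 558 anti-IL-2 cells (2.33%) and in 6 of 622 tacrolimus cells (0.965%, unthinned), below the 5% minimum for a call and inside the range of 1.49% to 3.101% of other-lineage cells or under it. That range rests on few cells. Under tacrolimus the 4 other-lineage cells with Cd40lg were all among 20 deep G2/M cells, and 0 of 105 non-dividing ones held it.

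Within CD4 cells Cd40lg was found in all division states. Under anti-IL-2 it was in 52.4% of 189 non-dividing cells, 8 of 11 G1/S cells and 14 of 25 G2/M cells. Under tacrolimus it was in 48.1% of 79 non-dividing cells, 69.2% of 26 G1/S cells and 61.0% of 123 G2/M cells. At 5000 UMIs the non-dividing and G2/M shares were 39.2% and 24.2% under anti-IL-2, a difference past the size rule that rests on 24 G2/M cells, and 38.8% and 33.6% under tacrolimus. Most cells that held the transcript held little of it, since 62.0% of detecting anti-IL-2 CD4 cells and 51.9% of detecting tacrolimus CD4 cells had 1 UMI, and the highest cells had 5 and 7 UMIs.

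Tnfrsf4, which encodes OX40, was in about the same share of cells in both libraries once division states were pooled. In CD4 cells it was in 40.9% under anti-IL-2 (34.4 to 47.6%) and 39.4% under tacrolimus (33.1 to 46.1%), a ratio of 1.04 (0.828 to 1.30). In CD8 cells the shares were 16.5% (13.5 to 19.8%) and 16.8% (14.02 to 20.1%), a ratio of 0.979 (0.758 to 1.26). By the mean level the same CD8 cells held 0.408 UMIs per 10000 under anti-IL-2 and 0.271 under tacrolimus, past the 1.5-fold limit (log2 ratio 0.59), so share and level differ and no order is read.

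The pooled CD8 share covered a difference in non-dividing cells. There Tnfrsf4 was in 33 of 222 cells under anti-IL-2 (14.9%, 10.5 to 20.3%) and in 3 of 100 under tacrolimus (0.623 to 8.52%), a ratio of 4.95 (1.56 to 15.8). The tacrolimus share was no higher than that of other-lineage cells. In G2/M cells it was in 17.6% of 290 under anti-IL-2 and 20.2% of 478 under tacrolimus after thinning of the latter, a ratio of 0.871 (0.641 to 1.18). Thinned to 5000 UMIs, the non-dividing shares were 9.36% and 1.85% and the G2/M shares 6.97% and 8.57%. Of the tested genes, 23.8% were called higher under anti-IL-2 in non-dividing CD8 cells, so a call there is common. Whether the treatment difference itself differs between the states was not tested.

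Tnfrsf4 was more frequent in dividing than in non-dividing CD8 cells of the tacrolimus library. It was in 20.3% of its G2/M cells and 3 of its 100 non-dividing cells (6.76-fold, 2.19 to 20.9), and in 8.57% and 1.85% at 5000 UMIs (4.63-fold). Of all tested genes 71% were called higher in the same comparison and 48.2% at 5000 UMIs. In CD8 cells of the anti-IL-2 library the G2/M and non-dividing shares were 17.6% and 14.9%, and 6.97% and 9.36% at 5000 UMIs, so the gene was called in neither direction.

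The share of tacrolimus CD8 cells with Tnfrsf4 also climbed steeply with the UMIs in the cell. It was 2.80% at 5000 to 10000 UMIs, 10.5% at 10000 to 20000 and 51.9% above 20000, and with these cells thinned to 5000 UMIs it was still 2.29%, 4.82% and 20.9%. In anti-IL-2 CD8 cells the shares in the same bins were 11.3%, 13.87% and 29.2%, and 9.53%, 6.94% and 8.78% after thinning. In the tacrolimus library the largest CD8 cells held Tnfrsf4 most often even at 1 depth, while the thinned anti-IL-2 shares lay close together. A few cells held many transcripts, up to 60 UMIs in a tacrolimus G1/S CD8 cell and 55 UMIs in a tacrolimus G2/M CD4 cell, against highest values of 12 UMIs in anti-IL-2 CD8 and 25 UMIs in anti-IL-2 CD4 cells.

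**Figure D3:**
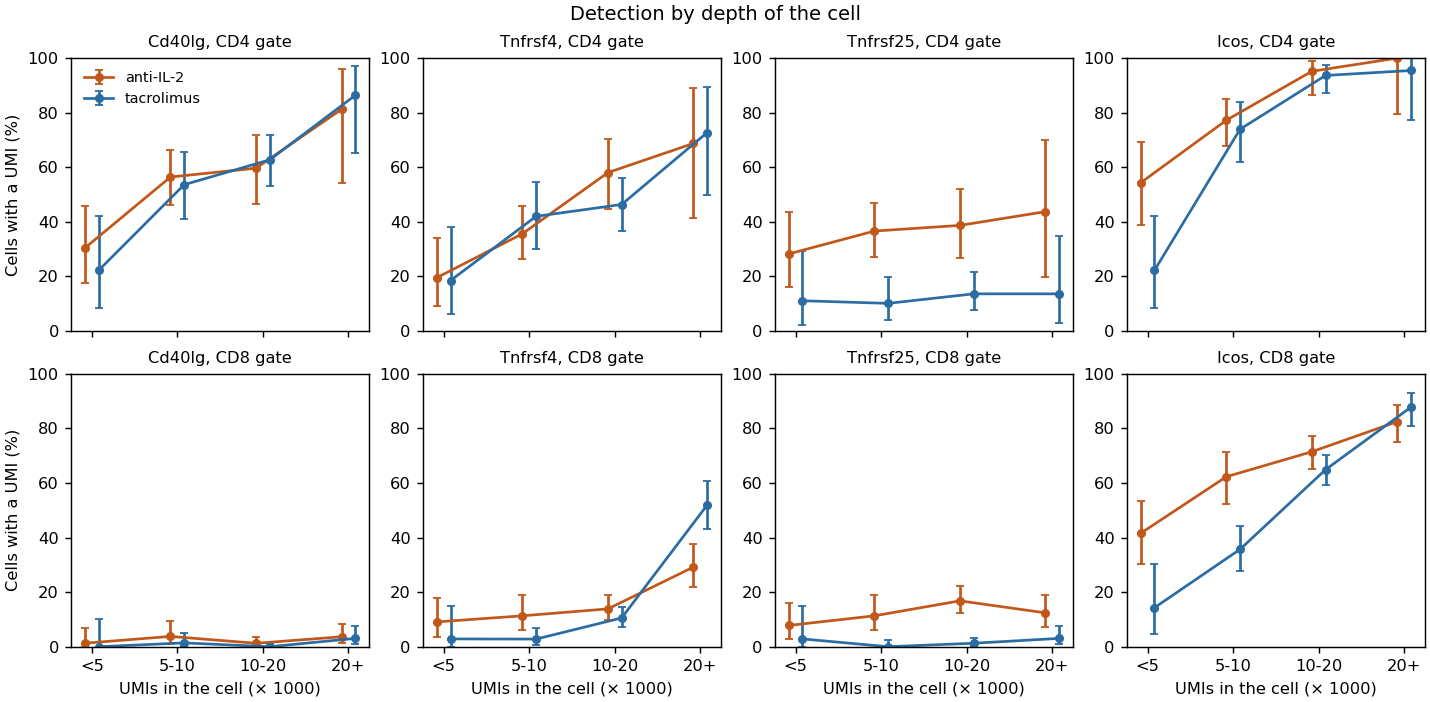
Share of cells with a UMI of each gene (y axis, percent) by the UMIs in the cell in bins (x axis), for CD4 gate cells above and CD8 gate cells below, anti-IL-2 and tacrolimus; bars are 95% Clopper-Pearson intervals. Tnfrsf4 in tacrolimus CD8 cells climbs to 51.9% above 20000 UMIs, and Tnfrsf25 is higher under anti-IL-2 across CD4 bins.

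Tnfrsf25, which encodes DR3, differed most of the 4 genes between the libraries. In CD4 cells it was in 81 of 225 under anti-IL-2 (36.0%, 29.7 to 42.6%) and in 10.4% under tacrolimus at matched depth (6.86 to 15.3%), a ratio of 3.47 (2.28 to 5.28). In CD8 cells it was in 75 of 558 under anti-IL-2 (13.4%, 10.7 to 16.6%) and in 1.38% under tacrolimus (0.664 to 2.73%), a ratio of 9.71 (4.84 to 19.5). The tacrolimus CD8 share was no higher than that of other-lineage cells. Unthinned, the anti-IL-2 CD8 share was above that of its other-lineage cells (4.48%). At 5000 UMIs it was not, with 6.33% of CD8 cells against 8.58% of 52 other-lineage cells. In the tacrolimus library these shares were 0.465% and 0.853% (41 other-lineage cells), so the background too was higher under anti-IL-2. These backgrounds rest on few cells. The mean level was likewise higher under anti-IL-2, with 0.699 against 0.199 UMIs per 10000 in CD4 and 0.172 against 0.0147 in CD8 cells. Whether the ratio differs between the gates was not tested.

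Tnfrsf25 was the 1 gene of the 4 called in each gate. Calls were common among all genes, with 54.9% of 876 tested genes called in either direction in CD4 and 24.5% of 916 in CD8 cells, so 1 of 4 is no more than the background. Most of those calls were in the other direction. The genes called higher under anti-IL-2 were 12.2% in CD4 and 8.19% in CD8 cells and those called lower 42.7% and 16.3%, and the median log2 ratio over all tested genes was -0.41 and -0.24. The log2 ratio of Tnfrsf25 was 1.80 and 3.28. At 5000 UMIs its shares were 23.4% against 6.603% in CD4 and 6.33% against 0.465% in CD8 cells.

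By division state Tnfrsf25 had its highest shares in non-dividing cells of the anti-IL-2 library, and G2/M cells held it too. In its CD4 cells it was in 38.6% of non-dividing, 2 of 11 G1/S and 6 of 25 G2/M cells, and in its CD8 cells in 21.2% of non-dividing, 1 of 46 G1/S and 9.31% of G2/M cells. G2/M over non-dividing was 0.440 in CD8 cells (0.283 to 0.683), where 4.64% of tested genes were called lower, and 3.25% against 12.4% at 5000 UMIs, where 13.5% were. In CD4 cells the ratio was 0.621 over 25 G2/M cells, with an interval that spans 1 (0.302 to 1.28), where 7.05% were called lower. That lower call was lost with the division limit at 0.25 or 0.5 (log2 ratios -0.45 and -0.53 in place of -0.69) and with the gate set by co-receptor genes alone (-0.27). At 5000 UMIs the CD4 shares were 5.20% against 27.4%, where 21% of genes were called lower. Under tacrolimus it was in 15.2% of non-dividing, 3 of 26 G1/S and 10.6% of G2/M CD4 cells, and in 1 of 100, 1 of 44 and 7 of 478 CD8 cells. Its tacrolimus CD4 shares at 5000 UMIs were 4.97% in G2/M and 9.81% in non-dividing cells, a lower call that 13.6% of genes met.

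Within a division state, at 5000 UMIs, the libraries differed by the size rule only in non-dividing cells. In G1/S CD4 cells Tnfrsf25 was in 2 of 11 against 3 of 26, a higher call with an interval of 0.304 to 8.16. At 5000 UMIs these shares were 6.79% against 6.69%. G1/S CD8 cells held it in 2.17% against 2.27%. Non-dividing CD4 cells held Tnfrsf25 in 38.6% against 15.1% at matched depth (ratio 2.56, 1.47 to 4.44), beside 18.3% of tested genes called higher. Non-dividing CD8 cells held it in 21.2% against 1 of 100 cells, and the ratio of 21.2 has an interval of 2.96 to 151. G2/M CD8 cells held it in 9.31% against 1.46% (ratio 6.36, 2.80 to 14.4), where 6.87% of tested genes were called higher, but in 3.25% against 0.512% at 5000 UMIs, under the 5% minimum for a call. In G2/M CD4 cells the shares were 24.0% against 10.6%, a call that 13.3% of genes also met, but 5.20% against 4.97% at 5000 UMIs, so no difference was detectable there at 1 depth. In anti-IL-2 CD4 cells the share climbed with depth, from 28.3% under 5000 UMIs to 36.6% at 5000 to 10000, 38.7% at 10000 to 20000 and 7 of 16 cells (43.75%) above, with intervals that overlap. Thinned to 5000 UMIs, the last 3 bins had 27.4%, 20.2% and 11.05%.

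Tcf7, which encodes TCF-1, a factor of naive, memory and follicular helper T cells, moved with Tnfrsf25 between the libraries. It was in 56.4% against 16.03% of CD4 cells and in 22.0% against 4.15% of CD8 cells at matched depth. Among anti-IL-2 CD8 cells Tnfrsf25 was in 39 of 123 with a Tcf7 UMI (31.7%, 23.6 to 40.7%) and in 36 of 435 without (8.28%, 5.86 to 11.3%), at median depths of 14025 and 12684 UMIs. Of CD8 cells with Tcf7, 31.3% of 67 dividing (20.6 to 43.8%) and 32.1% of 56 non-dividing ones (20.3 to 46.0%) held Tnfrsf25, and 9.04% and 16.1% did at 5000 UMIs. Of CD8 cells without Tcf7, 2.60% of 269 dividing and 17.5% of 166 non-dividing ones held it, and 1.23% and 10.99% did at 5000 UMIs. Unthinned, the lower share in dividing cells was seen only in cells without a Tcf7 UMI. Dividing cells with Tcf7 were deeper than non-dividing ones (median 19737 against 11882.5 UMIs), and at 5000 UMIs their share was lower too. The difference between cells with and without Tcf7 was not tested. In anti-IL-2 CD4 cells it was in 37.8% of cells with and 33.7% without Tcf7, intervals that overlap.

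Within cells that lacked a Tcf7 UMI the libraries still differed. Tnfrsf25 was in 33.7% of 98 anti-IL-2 CD4 cells of that kind (24.4 to 43.9%) and in 9.57% of 188 tacrolimus ones (5.77 to 14.7%). Among non-dividing CD8 cells without Tcf7 it was in 17.5% of 166 anti-IL-2 cells and 0 of 86 tacrolimus cells. That count of 0 allows a share of cells with a UMI of up to 3.49% by the limit of 3 counts, and up to 4.20% by the Clopper-Pearson interval. These shares are unthinned, and a cell without a Tcf7 UMI may still express Tcf7. Among anti-IL-2 CD4 cells Tnfrsf25 did not follow Cxcr5, the follicular chemokine receptor, being in 35.7% of 70 cells with Cxcr5, 39.0% of 77 with Tcf7 alone and 33.3% of 78 with neither.

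**Figure D4:**
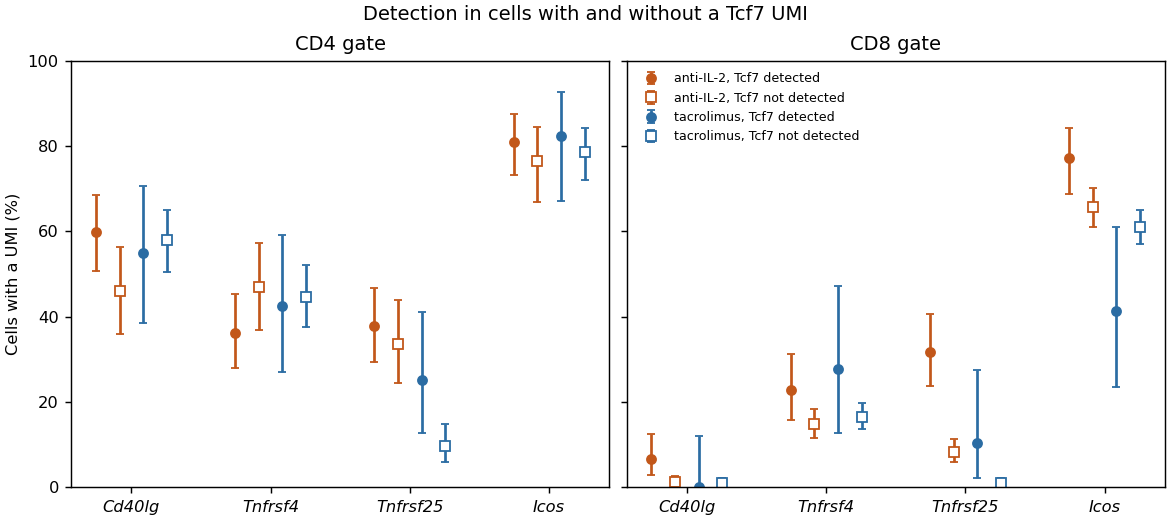
Share of cells with a UMI of each gene (y axis, percent, unthinned) in cells with (filled circles) and without (open squares) a Tcf7 UMI, for CD4 and CD8 gates, anti-IL-2 and tacrolimus; bars are 95% Clopper-Pearson intervals. In anti-IL-2 CD8 cells Tnfrsf25 is in 31.7% of cells with Tcf7 and 8.28% without, while in anti-IL-2 CD4 cells the intervals overlap.

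Icos was the most widely detected of the 4 genes in CD4 cells, and its share over the gate was close to its ceiling. Its CD4 share was 79.1% under anti-IL-2 (73.2 to 84.2%) and 75.2% under tacrolimus at matched depth (68.9 to 80.5%), a ratio of 1.05 (0.952 to 1.16). The largest ratio possible with that tacrolimus share is 1.33, so a higher call was not possible, while a lower call was. The mean level was 3.86 and 3.92 UMIs per 10000, with 57.3% of detecting anti-IL-2 cells and 68.0% of detecting tacrolimus cells at 3 UMIs or more. In non-dividing CD4 cells the shares were 77.8% and 60.5% (ratio 1.29, 1.06 to 1.56), under the size rule, and 71.5% and 66.2% at 5000 UMIs. In G2/M CD4 cells they were 92.0% and 90.2%, and 64.3% and 72.8% at 5000 UMIs.

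In CD8 cells Icos was somewhat more frequent under anti-IL-2, and the gap lay outside G2/M. Over the gate its share was 68.3% under anti-IL-2 (64.2 to 72.1%) and 58.1% under tacrolimus (54.2 to 62.1%), a ratio of 1.17 (1.08 to 1.28) that misses the size rule. In non-dividing cells it was in 141 of 222 anti-IL-2 cells (63.5%) and 35 of 100 tacrolimus cells (ratio 1.82, 1.36 to 2.41), with 1.66 and 0.6496 UMIs per 10000. At 5000 UMIs these shares were 45.6% and 29.2%. In G1/S cells the shares were 84.8% of 46 and 53.7% of 44 (ratio 1.58, 1.17 to 2.13, beside 16.5% of genes called higher), and in G2/M cells 69.3% and 64.3% (ratio 1.08, 0.974 to 1.19). At 5000 UMIs the G1/S pair no longer met the rule (47.4% and 33.7%), and the G2/M shares were 34.8% and 34.6%.

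With division Icos showed no change at 1 depth that met the rule. Tacrolimus CD8 cells held it in 65.9% of G2/M and 35 of 100 non-dividing cells (1.88-fold), but in 34.6% and 29.2% at 5000 UMIs. In CD4 cells at 5000 UMIs the G2/M and non-dividing shares were 64.3% and 71.5% under anti-IL-2 and 72.8% and 66.2% under tacrolimus. In non-dividing CD8 cells 3 of the 4 genes (Tnfrsf4, Tnfrsf25 and Icos) were called higher under anti-IL-2, where 23.8% of all tested genes were. These anti-IL-2 cells held more UMIs (median 10183 against 7186.5) and only tacrolimus cells were thinned. These calls and their background were thus not at matched depth. All 3 calls remained at 5000 UMIs, for which no share of all genes called is given here. The Tnfrsf25 call at that depth set 12.4% of 173 anti-IL-2 cells against 0% of 78 tacrolimus cells. It thus rests on the limit of 3 counts put in place of 0 (log2 ratio 1.69, against 4.40 before).

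The genes were also found together within single cells. All 4 were detected in 26 of 225 anti-IL-2 CD4 cells (11.6%) and 11 of 228 tacrolimus CD4 cells (4.82%), and in 2 of 558 and 0 of 622 CD8 cells. None of the 4 was found in 6.67% and 8.77% of CD4 cells and in 26.9% and 36.5% of CD8 cells. Cells with more of the genes were deeper, with medians of 4077 UMIs at 0 genes and 10018 UMIs at 4 genes in anti-IL-2 CD4 cells, so these counts follow depth too.

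Whether Tnfrsf25 and Icos were found together differed by stratum of the anti-IL-2 library, though the strata were not tested against each other. In non-dividing CD8 cells Icos was in 87.2% of 47 cells with Tnfrsf25 (74.3 to 95.2%) and 57.1% of 175 without (49.5 to 64.6%), at median depths of 11244 and 9923 UMIs. In G2/M CD8 cells it was in 70.4% of 27 with and 69.2% of 263 without, and in non-dividing CD4 cells in 79.5% of 73 and 76.7% of 116, with overlapping intervals in both. Tnfrsf4 was in 12 of the 47 non-dividing CD8 cells with Tnfrsf25 (25.5%) and 12% of the 175 without, also with overlapping intervals. Among non-dividing anti-IL-2 CD4 cells Icos was in 90.5% of 74 cells with Tnfrsf4 (81.5 to 96.1%) and 69.6% of 115 without (60.3 to 77.8%), at 9328 and 6341 UMIs. Cd40lg showed no such link to Tnfrsf25 there, which was in 40.4% of 99 cells with Cd40lg and 36.7% of 90 without.

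Regulatory T cells, which use OX40 and ICOS, could not be followed. Foxp3, their defining factor, was in 3 CD4 cells of each library, of which 3 and 2 held Tnfrsf4 and 0 and 0 held Cd40lg. Il2ra, the IL-2 receptor alpha chain, was in 8.44% of CD4 cells under anti-IL-2 and 20.98% under tacrolimus at matched depth. It was called lower, as 42.7% of all tested genes were. Ikzf2, the other regulatory marker measured, went the other way, with 25.8% against 19.6% of CD4 cells, and was called in neither direction. In CD8 cells Ikzf2 was called higher (22.4% against 13.6%) and Il2ra lower (14.7% against 41.6%).

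Across the 12 strata of library, gate and division state, the genes most like each of the 4 were found among 1058 genes, by Pearson correlation of log2 (share in percent + 1). For Cd40lg they were Cd4 (0.974), which defines the gate, Tesc (0.960) and Asb2 (0.958). For Tnfrsf4 they were Tspan13 (0.952), Idh2 (0.932) and Cd74 (0.927), and for Icos Cd5 (0.895), Cd70 (0.891) and Tspan13 (0.874). For Tnfrsf25 they were Sepp1 (0.905), Izumo1r (0.895), which encodes folate receptor 4, and Ifi27l2a (0.891). Sepp1, a selenoprotein gene, was in 45.0% of non-dividing anti-IL-2 CD4 cells and 21.5% of non-dividing tacrolimus CD4 cells, and in 12.2% and 0% of non-dividing CD8 cells. These strata share libraries and depth and are given as a description. Between pairs of the 4 genes the correlation ran from 0.536 for Tnfrsf25 and Icos to 0.890 for Cd40lg and Tnfrsf4. The genes listed above are the highest of 1058 by choice, so the pairs are not ranked against them.

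Other genes of the same families give the setting. Of 14 listed TNF receptors 5 were measured, and of the 4 in at least 5% of cells Tnfrsf25 was called higher in each gate and the other 3 in neither direction, with list medians of -0.01 in CD4 and 0.05 in CD8 cells (log2). Over all tested genes 12.2% in CD4 and 8.19% in CD8 cells were called higher, and 42.7% and 16.3% lower. Tnfrsf9, which encodes 4-1BB, was in 20% against 20.9% of CD4 cells and 58.1% against 52.8% of CD8 cells. Tnfrsf1a, a receptor for TNF, was in 11.6% against 15.9% and 19.4% against 20.8%. The other measured TNF receptors thus showed no difference of the size seen for Tnfrsf25.

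Among TNF ligands 6 of 15 were measured. In CD4 cells 2 were called higher (Tnfsf8, Ltb) and 1 lower (Tnfsf9), with a median of 0.13, and in CD8 cells 1 of the 3 in at least 5% of cells was called higher (Tnfsf8), with a median of 0.26. Over all tested genes 12.2% were called higher and 42.7% lower in CD4 cells, and 8.19% and 16.3% in CD8 cells. Tnfsf8, which encodes CD30 ligand, was in 52.9% against 10.7% of CD4 cells and 18.1% against 3.45% of CD8 cells. Ltb, which encodes lymphotoxin beta, was in 88.9% against 57.6% of CD4 cells, and Tnfsf9, which encodes 4-1BB ligand, in 7.56% against 13.7%. Tnfsf8 thus had a larger share than Tnfrsf25 in both gates of the anti-IL-2 library and the same direction.

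In the CD28 family 3 of 5 receptors were measured, Icos, Ctla4 and Pdcd1, and 0 were called in either gate, with medians of 0.16 and 0.14. Over all tested genes 54.9% were called in either direction in CD4 cells and 24.5% in CD8 cells. Pdcd1, which encodes PD-1, was in 68.0% against 53.0% of CD4 cells and 84.9% against 77.8% of CD8 cells. Of their 5 ligands only Cd80 was measured, and it was called lower in both gates, with 4.44% against 8.99% and 5.20% against 9.02%. Of all tested genes 42.7% in CD4 and 16.3% in CD8 cells were called lower. Of 20 genes of TRAF and NF-κB signalling 4 were measured. In CD4 cells 0 of them were called, and in CD8 cells Tnfaip3, an NF-κB target that encodes the inhibitor A20, was called higher (32.4% against 21.5%) and Nfkbid lower (10.4% against 16.7%).

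Several genes of helper cells were called higher under anti-IL-2. Of 10 listed, 7 were measured and 6 were in at least 5% of cells, of which 4 were called higher (Cxcr5, Tcf7, Il6ra and Cd200) and 0 lower, with a median of 1.29, beside 12.2% higher and 42.7% lower over all tested genes. In CD8 cells 4 were in at least 5% of cells, of which 3 were called higher (Cxcr5, Tcf7 and Cd200) and 1 lower (Maf, 7.17% against 12.2%), with a median of 1.78, beside 8.19% higher and 16.3% lower over all genes. In CD4 cells Cxcr5 was in 31.1% against 4.14%, Il6ra in 28.4% against 7.21% and Cd200 in 34.7% against 20.4%. Maf and Il21, which helper cells also use, were in 43.6% against 56.1% and 6.67% against 7.83% of CD4 cells and were called there in neither direction. Cd40lg and Icos, which helper cells use to instruct B cells, were likewise in neither.

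**Figure D5:**
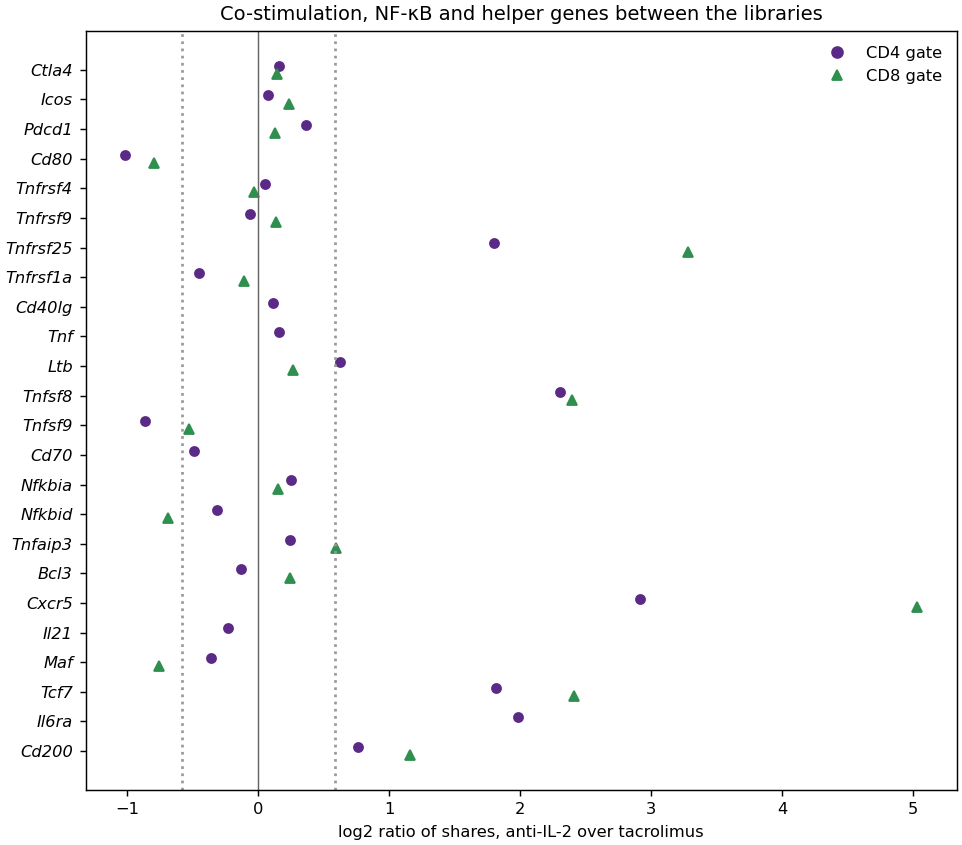
Log2 ratio of the share of cells with a UMI, anti-IL-2 over tacrolimus at matched depth (x axis), for the measured genes of the co-stimulation, NF-κB and helper lists in CD4 (circles) and CD8 (triangles) gates; gates where a gene was below 5% in both libraries are left out, and dotted lines mark 1.5-fold. Tnfrsf25 and Tnfsf8 stand right of the lines in both gates, with Cxcr5 and Tcf7, while Icos, Tnfrsf4 and Cd40lg lie between the lines.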

How the data were processed

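Libraries of 2 treatments were made with a droplet 5′ kit. Reads were handled with Cell Ranger 3.1.0 and Seurat against mm10, per the submitters' processing notes. Each file holds 2000 genes as natural log values (ln) deposited by the authors. Tacrolimus values were ln(1 + UMIs × 50000 / total), and 100% of them came out as whole UMIs (tolerance 0.001). The sources used here do not say how cells were filtered. In the anti-IL-2 file 13.89% of the deposited values were below 0 and 42.0% at 0, so that file was batch-integrated. The tacrolimus file repeated 308 anti-IL-2 columns, identical to the originals and used once.

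For the anti-IL-2 cells, the shift of a gene was the median of low values among the 30 nearest anti-IL-2 cells (20 principal components). Totals were fitted to the steps of whole UMIs, or read directly in 184 cells with 2 or more unshifted values and 197 with 1; the fit came within 1.25-fold for 95.1% and 92.4% of such cells. These shares are in-sample, since 11 settings were tried on the same cells. Detection meant a value over 0.5 times that of 1 UMI. The design had assumed UMI counts; counts were recovered instead, and no count model was used.

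Division state was G2/M where 0.33 of the measured G2/M genes (38 of 43) were detected, else G1/S by the same share (25 of 34), else non-dividing. Near the G2/M limit (within 0.05) lay 4 and 33 anti-IL-2 CD4 and CD8 cells and 12 and 41 tacrolimus ones. No doublet caller was run, and cells with genes of both co-receptors (99 anti-IL-2, 94 tacrolimus) were left out of the gates. With 1 library each there is no test and no p-value: genes were called by size (share of 5% in either group, 1.5-fold). Python 3.11.15, numpy 2.4.6, scipy 1.17.1 and pandas 2.3.3 were used. The genes named are the 4 genes, genes of the family, signalling and helper lists, markers of cell types, and the 3 genes most like each of the 4. Not every measured gene of these lists is named. The 4 genes and the lists were chosen with earlier results of these data known.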

Additional observations from a re-analysis of the deposited data

How the results depend on the processing

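Across 14 alternative settings and 43 results, 325 values were recomputed, of which 282 stayed within the 95% interval of the main value (counts of genes within 1.5 times), 43 moved out of it and 0 reversed a called direction. These intervals are wide for rare genes. Of the 220 single values, 14 changed their call by the size rule, all but 1 of them in comparisons of gates or states. Tnfrsf25 was called higher under anti-IL-2 in both gates under each setting that recomputed it, deposited anti-IL-2 values included. By mean UMIs per 10000 in place of shares, log2 ratios of anti-IL-2 over tacrolimus were 0.38 for Tnfrsf4 in CD4 cells. They were 0.59 for Tnfrsf4 and 0.45 for Icos in CD8 cells, so 2 of the 4 genes were called in CD8 cells. Calls were more common by this measure, with 86 of all genes higher and 311 lower in CD8 cells, in place of 75 and 149. The cause was not tested. With only the anti-IL-2 cells whose total was read directly (65 CD4 and 97 CD8 cells, chosen after seeing the data), Icos in CD8 cells was at 0.51. With the gate set by co-receptor genes alone, also chosen after seeing the data, Tnfrsf25 was at 1.94 in CD4 (390 and 335 cells) and 3.39 in CD8 cells (858 and 1051). At 5000 UMIs, with shallower cells left out, all 4 genes in place of 3 were called higher in CD4 over CD8 cells of both libraries, and most comparisons of states moved; the cause was not tested. The lower call of Tnfrsf25 in G2/M CD4 cells under anti-IL-2 was lost at division limits of 0.25 and 0.5 and with co-receptor gates (log2 ratios -0.45, -0.53 and -0.27), so 0 of the 4 genes were called there. No replicate could be left out, since each treatment is 1 library. No paired analysis was possible because each treatment is 1 library. UMI levels under anti-IL-2 rest on fitted totals, and shares near 1% rest on under 10 cells.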
